A study of Mus musculus with 6 samples.

Results

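Troponin is the calcium switch of the thin filament in striated muscle, and its 8 genes were examined here in chromatin accessibility profiles of mouse quadriceps femoris with and without Prr14. Of 75134 peaks in the deposited table, 16 carried the name of a troponin gene as their annotated gene: 6 at the slow genes Tnni1, Tnnt1 and Tnnc1, 7 at the fast genes Tnni2, Tnnt3 and Tnnc2, and 3 at the cardiac genes Tnni3 and Tnnt2. All 16 had enough reads to be tested. The assay was ATAC-seq, which sequences the ends that a transposase leaves where it reaches open DNA. Nuclei came from frozen skeletal muscle of Prr14-KO mice (replicates 4, 5 and 7) and Prr14-WT mice (replicates 3, 4 and 8). The labels name the quadriceps and the genotype. They do not name the strain, age or sex, the part of Prr14 removed, the cells in which it was removed, or whether the libraries come from separate animals. The p-values therefore reflect only how these libraries vary, and that variation may be technical. PRR14 is a protein of the nuclear lamina that links heterochromatin to the nuclear edge, and the series title connects it to mechanotransduction, fibre identity and the transcription factor MEF2C.

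Each troponin complex holds 3 subunits: troponin C binds calcium, troponin I inhibits the contact of myosin with actin, and troponin T anchors the complex to tropomyosin. Slow and fast fibres use different genes for each subunit, so troponin isoforms are standard markers of fibre type. Tnnc1 serves both slow muscle and heart, while Tnni3 and Tnnt2 are the heart's inhibitory and tropomyosin-binding subunits. Most of the genes stand in neighbouring pairs of a troponin I and a troponin T gene, Tnni1 with Tnnt2, Tnnt1 with Tnni3 and Tnni2 with Tnnt3, whereas Tnnc1 and Tnnc2 stand alone.

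Library totals ran from 7608514 to 12061822 counts in peaks. Levels are given as counts per 1000000 (CPM), scaled between libraries with TMM factors. WT replicates 4 and 8 stood apart at strong peaks: among the strongest 739 peaks (the top 1% by mean CPM), WT replicate 4 was the highest of the 6 libraries at 44.2% and WT replicate 8 the lowest at 64.3%, against 24.8% and 19.5% of all tested peaks. All 8 myofibre marker genes had a promoter peak, with summed promoter levels of 506 to 792 CPM in WT and 604 to 653 CPM in KO. Over this list and 9 lists of other cell types, cardiomyocytes among them, edgeR called no promoter peak. The lists held 1 to 8 promoter peaks each, and 0.894% of all promoter peaks were higher and 0.692% lower. With so few promoters, 0 calls say little about the cell types present. An unadjusted p under 0.05 was found for 1 myofibre and 1 satellite cell promoter. Over all 163 peaks of the myofibre genes, however, 25 were lower in KO and 2 higher, where 4.23% and 2.77% of all tested peaks were. These counts were not repeated with other scalings or with libraries left out. The myofibre list shares Acta1 and Neb with the thin filament list described further on. The lower count of that list was 26, but 2 with the authors' library factors and 4 without WT replicate 4. Of 20 satellite cell peaks 4 were higher and 1 lower, and of 25 smooth muscle and pericyte peaks 3 were higher and 0 lower. The other lists had at most 2 called peaks in a direction.

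Every fast peak was stronger per length than every slow or cardiac peak, and most fast peaks were also wider. The 7 fast peaks were 549 to 7075 bases wide with a median of 3825, and the 9 others 257 to 1826 bases wide. Among the slow peaks, those of Tnni1 at 135776198 and 135793795 were wider than 91.3% and 92.2% of all tested peaks. Their mean CPM was above that of 90.2% and 91.6%. Per length, the fast peaks held 32.4 to 45.9 CPM per kb and the slow peaks 10.5 to 23.6 CPM per kb. The cardiac peaks held 8.23 to 12.4 CPM per kb, near the median of 8.86 CPM per kb over all tested peaks. The peak over Tnni2, the fast inhibitory subunit gene, spans the whole gene (chromosome 7, 142440133 to 142447207, GRCm38) and also overlaps the gene Syt8. It was wider than 99.997% of the tested peaks. These levels describe accessibility of the tissue as a whole: fewer nuclei of a type and less open chromatin per nucleus cannot be told apart in a bulk sample.

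**Figure D1:**
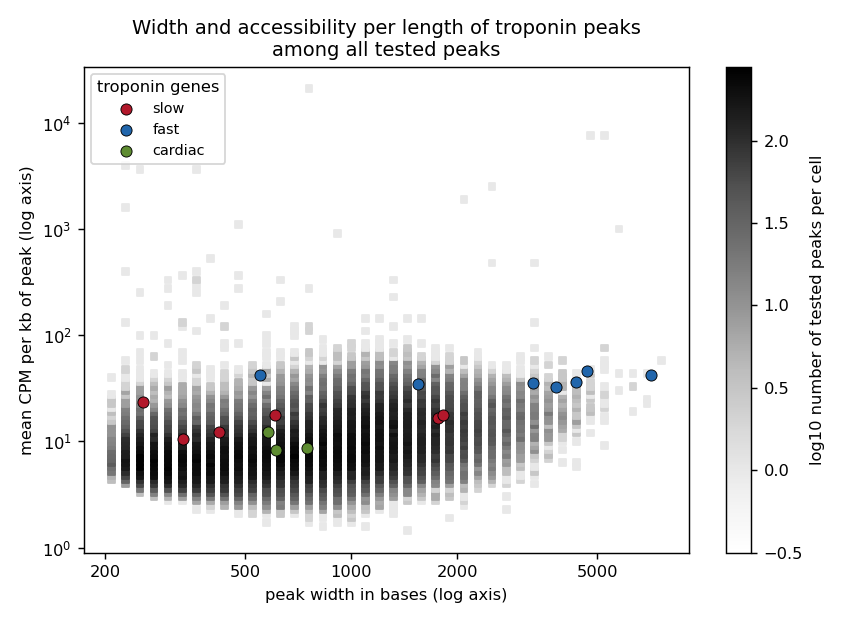
Peak width in bases (x, log axis) against mean CPM per kb over the 6 libraries (y, log axis). Grey cells count all tested peaks, coloured points are the troponin peaks. The blue points of the fast genes lie at 32.4 CPM per kb or above, and every red (slow) or green (cardiac) point lies at 23.6 or below.

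A peak covered the RefSeq start of all 3 fast genes and of 0 of the 5 slow and cardiac genes. With the gene spans of the deposited table, a peak covered the start of 64.2% of the 16065 genes that had any peak. By those spans the start of Tnni3 was also covered, because the span begins further upstream than in RefSeq. That peak (chromosome 7, 4523912 to 4524521) and the other Tnni3 peak (4526383 to 4526961) both lie inside the neighbouring gene Dnaaf3, 1194 and 3665 bases upstream of the RefSeq start of Tnni3. The single Tnnt1 peak (chromosome 7, 4513452 to 4513785) lies 2190 bases inside the gene, and the single Tnnc1 peak (chromosome 14, 31209041 to 31209460) 729 bases inside. The single peak named for Tnnt2 (chromosome 1, 135865448 to 135866196) is intergenic and begins 13180 bases beyond the gene's end, so the Tnnt2 start itself was not measured by any peak.

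Promoter sequences from RefSeq (build GRCm38.p6) matched 6 of the 8 genes. The 250 bases before the start are shown for Tnnc2, whose window lay within an open peak, and for Tnnc1 and Tnni1, whose windows lay outside every peak although a peak inside each gene changed in KO. Capitals mark E-boxes (CANNTG, either strand), the core motif of myogenic bHLH factors. The windows are chr2:164779735-164779984 on the minus strand, chr14:31208062-31208311 on the plus strand and, for an internal start of Tnni1, chr1:135799171-135799420 on the plus strand.
Tnnc2: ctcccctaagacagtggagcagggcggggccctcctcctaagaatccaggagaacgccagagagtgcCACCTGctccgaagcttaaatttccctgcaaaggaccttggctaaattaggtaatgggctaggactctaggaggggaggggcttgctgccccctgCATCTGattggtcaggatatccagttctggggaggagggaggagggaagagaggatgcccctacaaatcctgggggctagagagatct
Tnnc1: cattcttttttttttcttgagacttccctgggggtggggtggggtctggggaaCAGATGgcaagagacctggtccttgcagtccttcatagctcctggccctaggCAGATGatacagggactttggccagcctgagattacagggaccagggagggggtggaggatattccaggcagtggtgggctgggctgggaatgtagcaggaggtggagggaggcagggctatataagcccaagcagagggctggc
Tnni1: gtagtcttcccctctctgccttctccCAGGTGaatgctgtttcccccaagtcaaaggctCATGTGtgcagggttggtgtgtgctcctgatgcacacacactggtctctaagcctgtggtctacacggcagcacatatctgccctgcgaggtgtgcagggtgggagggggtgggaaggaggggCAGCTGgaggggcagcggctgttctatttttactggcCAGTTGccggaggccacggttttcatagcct
Tnnc2 and Tnnc1 held 2 E-boxes each and this Tnni1 window 4, in a background where 66.2% of 32851 such windows held at least 1. The M-CAT element (CATTCC, either strand), bound by TEAD factors, was found once in the Tnnc1 window and not in those of Tnnc2 or Tnni1, and 12.6% of all windows held it. Matches to the MEF2 site, the CArG box and MEF3 (TCAGGTT, either strand) were absent from all 3 windows. Over all windows, 2.92%, 1.47% and 3.49% held them. A match or its absence describes the letters in these windows and says nothing of factor binding.

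**Figure D2:**
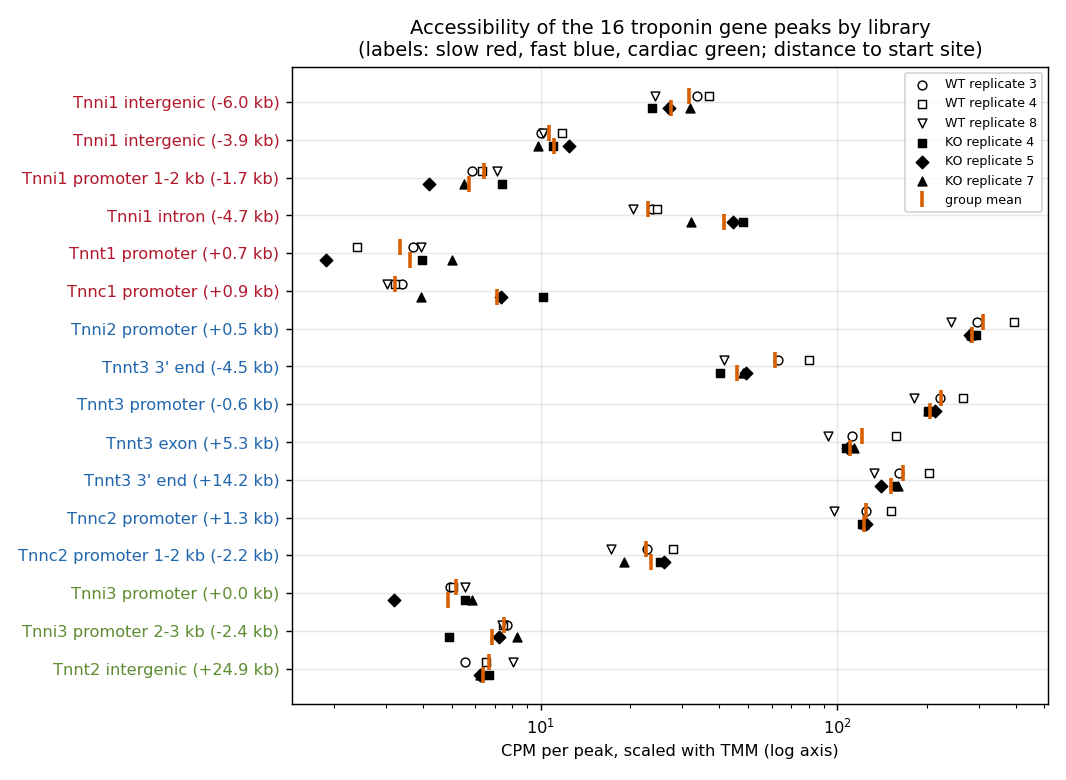
CPM of each of the 16 troponin peaks (x, log axis) in each library, with open symbols for WT, filled symbols for KO and orange ticks for group means. KO libraries lie wholly above WT at 2 peaks, the Tnni1 intron and the Tnnc1 promoter, and the groups overlap at the other 14.

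In KO muscle, 2 of the 16 troponin peaks were more accessible and 0 were less accessible, and both of the higher ones belonged to slow genes (Tnni1 and Tnnc1). Of all 73896 tested peaks, 7.01% were called at an adjusted p below 0.05, 2.77% higher and 4.23% lower (edgeR quasi-likelihood test, Benjamini-Hochberg over all peaks). In edgeR 3 of the 16 peaks had an unadjusted p under 0.05. The share of all tested peaks at that level was not counted, though it is at least the 7.01% called. The unadjusted counts given elsewhere likewise have no background share. The same 2 peaks were the ones where all KO libraries lay above all WT libraries, which held for 9.17% of tested peaks, while 11.2% had KO wholly below WT. The median log2 fold change of KO over WT was 0.09 over the 6 slow peaks, -0.13 over the 7 fast peaks, -0.09 over the 3 cardiac peaks and -0.01 over all tested peaks. DESeq2 and limma-voom also called 2 troponin peaks higher and 0 lower. The authors' deposited table likewise holds 2 higher and 0 lower among them, against 2.44% and 0.872% of the peaks that have an adjusted p there. The difference between slow and fast genes is given further on as a value per library and was not tested.

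Tnni1 encodes the slow inhibitory subunit, and its rise was in 1 intronic peak (chromosome 1, 135793795 to 135795620). This peak had 23.8, 24.7 and 20.5 CPM in WT replicates 3, 4 and 8 and 48.1, 44.6 and 32.0 CPM in KO replicates 4, 5 and 7. Every KO library was above every WT library, with KO replicate 7 nearest to WT. The mean rose from 23.0 ± 2.17 to 41.6 ± 8.43 CPM (SD, n = 3 each), 1.80-fold (log2 fold change 0.85, SE 0.19, edgeR adjusted p = 3.45e-04). The call held without each library in turn, with log2 fold changes from 0.74 to 1.03. The peak lies 10762 bases into the gene and ends 3801 bases before an internal RefSeq start at 135799421, the start whose upstream window is printed above.

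The other Tnni1 peaks, all upstream of the gene, did not pass. The strongest of them (135776198 to 135777966) had 33.5, 36.9 and 24.2 CPM in WT and 23.7, 27.0 and 31.8 CPM in KO, ranges that overlap (log2 fold change -0.20, SE 0.19, edgeR adjusted p = 0.679). The next (135778873 to 135779481) averaged 10.6 ± 0.996 CPM in WT libraries and 11.1 ± 1.35 CPM in KO libraries. The peak nearest the deposited start (135781252 to 135781508), only 257 bases wide, averaged 6.44 ± 0.627 and 5.70 ± 1.63 CPM. In each WT library the strongest upstream peak was above the intronic one, and in each KO library it was below, though in KO replicate 7 only by 31.8 against 32.0 CPM. Their widths are close, at 1769 and 1826 bases.

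Tnnc1, the calcium-binding subunit of slow and cardiac muscle, had 3.40, 3.22 and 3.03 CPM at its single peak in WT replicates 3, 4 and 8. KO replicates 4, 5 and 7 had 10.1, 7.32 and 3.94 CPM. The WT libraries were close together and the KO libraries spread widely, with KO replicate 7 just above WT. The log2 fold change was 1.14 (SE 0.30, edgeR adjusted p = 0.00464), and the call was lost without KO replicate 4 (0.81, adjusted p = 0.237). The counts behind it were small, 33, 35 and 23 in WT and 97, 89 and 43 in KO. Tnnc1 was the 1 higher promoter peak among the 7 troponin genes with a peak within 3 kb of an annotated start, where 0.894% of 12868 promoter peaks were higher and 0.692% lower.

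Tnnt1, the slow tropomyosin-binding subunit, had the weakest peak of the 16. Its levels were 3.70, 2.39 and 3.95 CPM in WT and 3.97, 1.89 and 5.03 CPM in KO. KO replicates 5 and 7 were the lowest and the highest of all libraries, and the log2 fold change of 0.12 had an SE of 0.36 (edgeR adjusted p = 0.929).

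**Figure D3:**
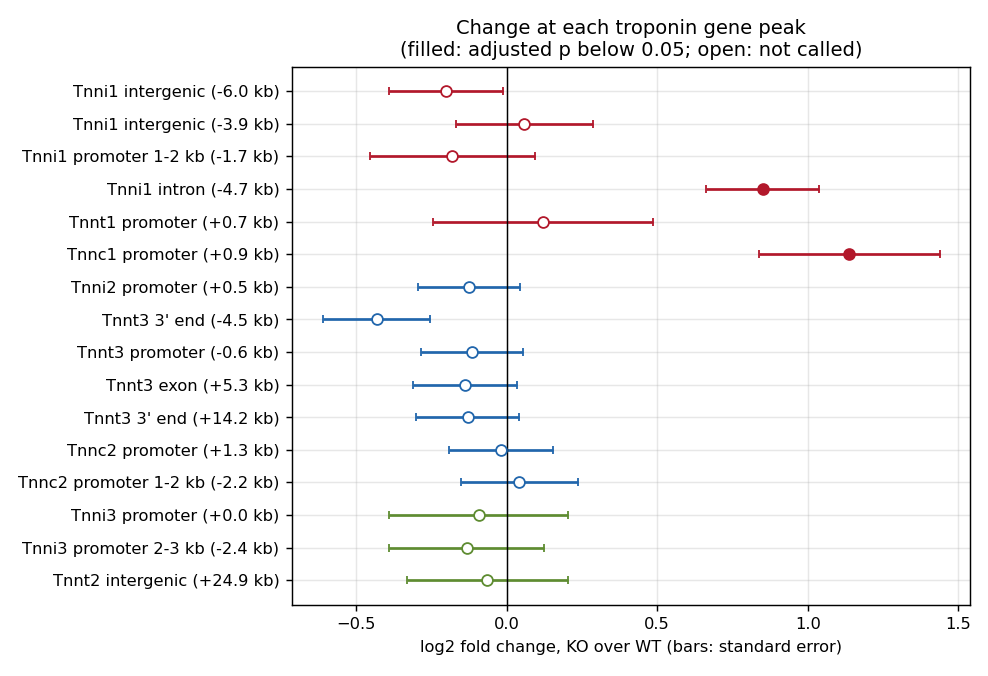
Log2 fold change of KO over WT (x) with its standard error for each troponin peak, filled where the adjusted p was below 0.05. The filled points are the Tnni1 intron (0.85) and the Tnnc1 promoter (1.14), and the fast peaks run from -0.43 to 0.04.

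At the fast genes, 0 of the 7 peaks passed in edgeR, DESeq2 or limma-voom, with 1 at an unadjusted p below 0.05 (edgeR). Tnni2 had 296, 395 and 242 CPM in WT replicates 3, 4 and 8 and 293, 281 and 282 CPM in KO replicates 4, 5 and 7. The KO libraries lay close together inside the WT range (log2 fold change -0.13, SE 0.17, edgeR adjusted p = 0.803). The same arrangement was seen at the start of Tnnc2, the fast calcium-binding subunit (chromosome 2, 164776495 to 164780319). It had 124.9, 152 and 97.1 CPM in WT and 121, 124.6 and 123 CPM in KO (log2 fold change -0.02, SE 0.17, edgeR adjusted p = 0.979). Its second peak, 1973 bases upstream (164781707 to 164782255), averaged 22.7 ± 5.37 CPM in WT libraries and 23.5 ± 3.77 CPM in KO libraries.

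Tnnt3, the fast tropomyosin-binding subunit, had 4 peaks. The promoter peak (chromosome 7, 142495913 to 142500589) had the highest level per length of all troponin peaks, with 221, 266 and 181 CPM in WT and 202, 214 and 202 CPM in KO. Its log2 fold change was -0.11 (SE 0.17, edgeR adjusted p = 0.827). An exonic peak (142505329 to 142508616) gave -0.14 and a peak over the gene's end (142513678 to 142518027) -0.13. The promoter and exonic peaks also overlap the gene Prr33. The upstream peak (142493546 to 142495093), which overlaps the end of Lsp1 and also Prr33, differed most. It had 63.2, 80.5 and 41.6 CPM in WT and 40.3, 49.2 and 48.2 CPM in KO, with WT replicate 8 among the KO values. Its log2 fold change of -0.43 (SE 0.18) did not pass (edgeR adjusted p = 0.141), and it passed without WT replicate 8 (-0.60, adjusted p = 0.00935).

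The spread at the fast genes sat in the WT group. WT replicate 4 was the highest library at 7 of 7 fast peaks and WT replicate 8 the lowest at 6 of 7. Summed over the promoter peaks of the 3 fast genes, WT gave 643, 813 and 520 CPM and KO gave 617, 619 and 607 CPM. The mean log2 difference of KO from WT was -0.08 with all libraries, 0.09 without WT replicate 4 and -0.23 without WT replicate 8. The sign changed only without WT replicate 4, among the 6 libraries left out in turn.

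At the cardiac genes, 0 of the 3 peaks passed in edgeR, DESeq2 or limma-voom, and 0 had an unadjusted p under 0.05 (edgeR). The Tnni3 peak at the annotated start averaged 5.18 ± 0.311 CPM in WT libraries and 4.87 ± 1.45 CPM in KO libraries, with KO replicate 5 lowest at 3.21 CPM. The second Tnni3 peak gave 7.51 ± 0.181 and 6.83 ± 1.74 CPM, and the peak downstream of Tnnt2 gave 6.71 ± 1.25 and 6.39 ± 0.263 CPM. Log2 fold changes lay between -0.13 and -0.06 with SE of 0.26 to 0.30. Of 7 cardiomyocyte marker genes, 3 had a promoter peak, with summed levels of 9.29 to 13.8 CPM in WT and 10.2 to 15.7 CPM in KO. No promoter peak was listed for Nkx2-5, Nppa, Nppb or Myl7.

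Each slow gene was also set against the fast gene of the same subunit within a library, a ratio that does not depend on library scaling. Tnni1 stood at 24.7%, 20.2% and 25.6% of Tnni2 in WT replicates 3, 4 and 8 and at 30.8%, 31.4% and 28.1% in KO replicates 4, 5 and 7. Tnnc1 stood at 2.30%, 1.79% and 2.65% of Tnnc2 in WT and at 6.91%, 4.86% and 2.77% in KO. For both subunits all KO libraries lay above all WT libraries, at Tnnc1 by a narrow margin. Tnnt1 stood at 0.663%, 0.338% and 0.881% of Tnnt3 in WT and at 0.787%, 0.369% and 0.961% in KO, and these ranges overlap. The ratios are sums over peaks of unequal width, include the called Tnni1 and Tnnc1 peaks, were chosen after the values were seen and carry no test. Over the promoter peaks of all 3 subunits, the log2 ratio of fast to slow levels was 5.63, 6.09 and 5.21 for the WT libraries in the same order. For the KO libraries it was 4.84, 5.53 and 5.39, so the groups overlapped. The mean difference of KO from WT in this log2 ratio was -0.39, and it shrank to -0.17 when WT replicate 4 was left out and to -0.18 when KO replicate 4 was. Leaving out WT replicate 8 gave -0.60. Over all peaks of these genes the log2 ratio was 3.64, 3.91 and 3.54 in WT and 3.18, 3.28 and 3.43 in KO, without overlap. These sums include the called Tnni1 and Tnnc1 peaks, and Tnni1 makes up most of the slow sum. The gap is thus no evidence apart from those calls, and it was not tested.

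**Figure D4:**
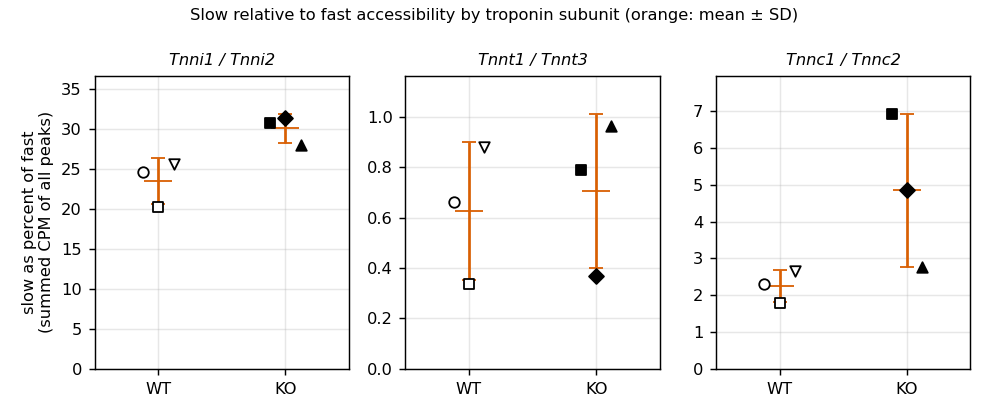
Summed CPM of the slow gene as a percent of the fast gene for troponin I, T and C, each library a point (open WT, filled KO; circle, square, diamond, upward and downward triangle for replicates 3, 4, 5, 7 and 8) with mean ± SD in orange. KO lies above WT for troponin I (28.1% or more against 25.6% or less) and troponin C, and the groups overlap for troponin T.

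When counts were summed over all peaks of a gene and refitted over 15961 genes, 0 of the 8 troponin genes passed in edgeR and 0 in limma-voom, against 4.83% of all genes in edgeR (1.82% higher and 3.01% lower). At an unadjusted p below 0.05 there were 2, Tnni1 and Tnnc1. The Tnnc1 sum, which is its single peak, gave a log2 fold change of 1.14 with a larger SE of 0.35 (edgeR adjusted p = 0.0737), and it passed in DESeq2 (adjusted p = 0.0426). The Tnni1 sum over 4 peaks gave 0.25 (SE 0.12, edgeR adjusted p = 0.307). Tnnt3 gave -0.17, Tnni2 -0.14 and Tnnc2 -0.02, with SE of 0.13 to 0.14.

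Peaks of other genes around Tnni1 and Tnnc1 did not pass. Within 50 kb of Tnni1 there were 5 such peaks, of which edgeR called 0 and 0 had an unadjusted p under 0.05, with log2 fold changes from -0.21 to 0.19. Within 50 kb of Tnnc1 there were 10, of which edgeR called 0 and 1 had an unadjusted p under 0.05 (-0.49 to 0.65). No peak of another gene lay between Tnni1 and the Tnnt2 peak, or between the Tnnt1 and Tnni3 peaks.

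Between the fast pair Tnni2 and Tnnt3 lies Lsp1, which encodes an actin-binding protein best known from leukocytes. Of its 8 tested peaks between the pair, 1 rose and 0 fell. This peak, at an annotated Lsp1 start (chromosome 7, 142470399 to 142472725) and named after its values were seen, lies 25989 bases from the end of Tnni2 and 26111 bases from the start of Tnnt3. It had 33.4, 35.9 and 32.1 CPM in WT and 68.3, 79.7 and 71.9 CPM in KO, with a wide gap between the groups. The log2 fold change was 1.11 (SE 0.18, edgeR adjusted p = 1.84e-07), and without each library in turn it ran from 1.09 to 1.19. Of 6 macrophage markers 2 had a promoter peak, with summed levels of 6.99 to 8.23 CPM in WT and 4.52 to 8.79 CPM in KO, and the defining genes Ptprc and Adgre1 had none. Their part in the Lsp1 result was not tested.

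**Figure D5:**
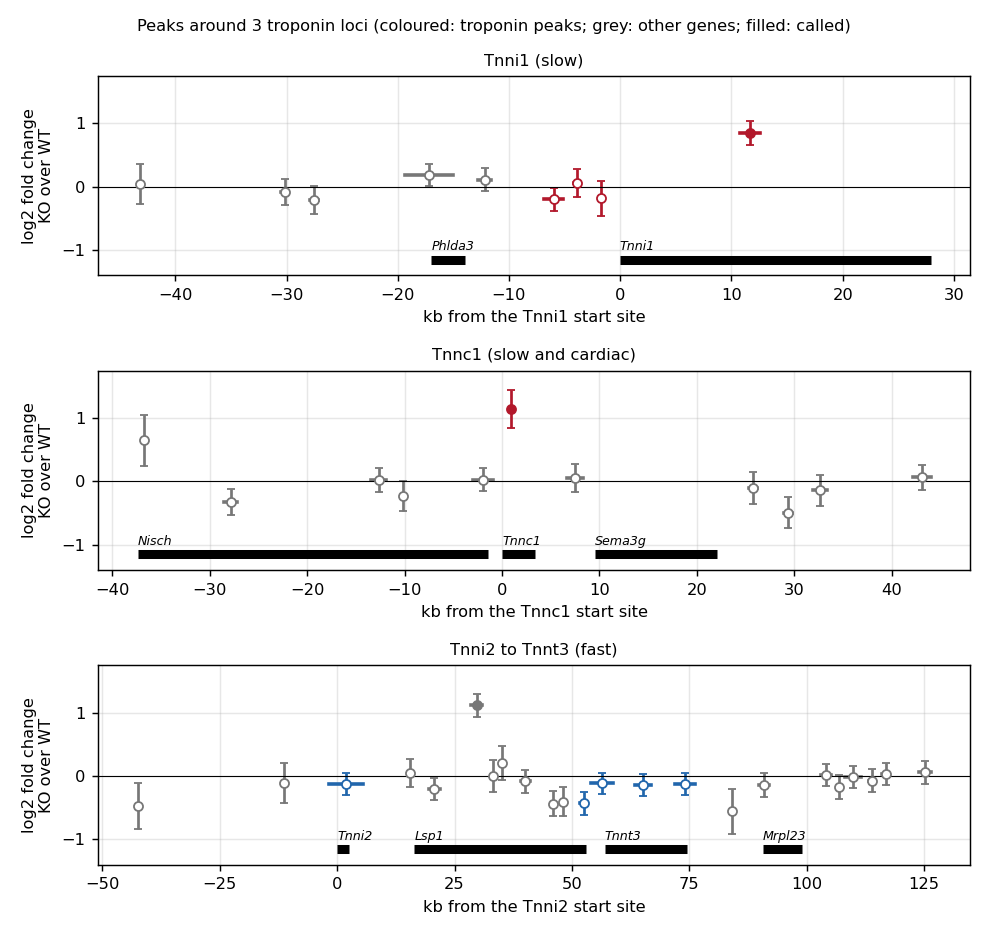
Log2 fold change of KO over WT with its standard error (y) for every tested peak around Tnni1, Tnnc1 and the Tnni2 to Tnnt3 pair, by distance from the gene start in kb (x). Horizontal bars give peak width, black bars gene spans, colours troponin peaks and filled points called peaks. At each locus 1 peak is called, and at the fast pair it is the grey Lsp1 peak at 1.11.

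Other genes of the thin filament and of fibre type were read from the same fit. Of 13 thin filament genes besides the troponins, 0 promoter peaks were higher and 2 lower, where 0.894% and 0.692% of all promoter peaks were. The lower ones were Lmod3, an actin filament nucleator of the sarcomere, at -0.65 (SE 0.20, edgeR adjusted p = 0.0194), and Klhl41, which stabilises thin filament proteins, at -0.61 (SE 0.19, edgeR adjusted p = 0.0250). Neither passed with the library factors of the authors, without KO replicate 5, without KO replicate 7 or without WT replicate 4, and 1 of these promoters passed without KO replicate 4. Acta1, the skeletal actin gene, gave -0.08, and Tpm2, a tropomyosin gene, -0.11. Over all 127 peaks of this list, 26 were lower and 2 higher, where 4.23% and 2.77% of all tested peaks were. The lower count was 4 without WT replicate 4, 5 without KO replicate 5, 6 without KO replicate 7, 15 without KO replicate 4 and 16 without WT replicate 3. It was 13 in DESeq2 and 2 with the authors' factors.

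Of 10 fast fibre genes, 9 had a promoter peak, of which 2 were lower and 7 did not pass, where 0.692% of all promoter peaks were lower. The lower ones were Myh4 at -1.08 (SE 0.18, edgeR adjusted p = 3.95e-07) and Myl1 at -0.82 (SE 0.20, edgeR adjusted p = 0.00113). With the authors' factors 0 of the 9 promoters were lower in edgeR. In DESeq2, limma-voom, the other scalings and filters and with each library left out, 2 were lower. Among the 7 that did not pass, log2 fold changes were -0.08 at Atp2a1, the fast calcium pump, -0.11 at Actn3, the fast Z-disc actinin, -0.12 at Mylpf, a fast regulatory light chain, and -0.13 at Casq1, a calcium store protein. The other 3 were Mybpc2, a myosin-binding protein, at -0.17, Pvalb, the calcium buffer parvalbumin, at -0.20, and Myh1, a fast myosin heavy chain with a weak promoter peak, at -1.23 (SE 0.49, edgeR adjusted p = 0.125). Over all 47 peaks of the list, 19 were lower and 1 higher, again beside 4.23% and 2.77% of all tested peaks. The lower count was 4 with the authors' factors and 13 to 21 with each library left out. Of 9 slow fibre genes, 7 had a promoter peak and 0 were called by edgeR, DESeq2 or limma-voom, with a median log2 fold change of 0.23 against 0.06 over all promoter peaks. The 2 at an unadjusted p under 0.05 in edgeR went opposite ways. Pln was at -0.81 (SE 0.33, edgeR adjusted p = 0.137) and Myh7 at 0.78 (SE 0.40, edgeR adjusted p = 0.286). Over the 48 peaks of the slow fibre genes, 1 was higher and 12 lower, where 2.77% and 4.23% of all tested peaks were. The lower count was 6 without KO replicate 5, 7 without WT replicate 4 and 8 in DESeq2, and with the authors' factors 2 were higher and 2 lower.

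Of 15 genes for factors reported to act on troponin genes, all had a promoter peak. Of these 1 was higher and 0 lower, where 0.894% and 0.692% of all promoter peaks were. The higher promoter was that of Tead4, a TEAD family factor that binds M-CAT elements, at 0.68 (SE 0.22, edgeR adjusted p = 0.0345). The call was lost in DESeq2, with the factors of the authors, and on leaving out any of KO replicates 5 and 7 and WT replicates 4 and 8. Over all 286 peaks of this list, 12 were higher and 18 lower, where 2.77% and 4.23% of all tested peaks were. With each library left out the higher count ran from 3 to 12 and the lower count from 8 to 18.

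Among 11244 genes with a promoter peak of at least 5 CPM, those most like the summed fast troponin promoters over the 6 libraries were Ttn (Pearson r = 0.994), Smim20 (0.992) and Hk2 (0.991). Most like the summed slow promoters were Tsc22d1 (r = 0.954), Lgals4 (0.951) and Fgf9 (0.947). None of these 6 promoters was called in KO. The 6 points share library depth and scaling, and the fast pattern is the order of the WT libraries described above. These r values were picked as the highest among 11244 genes over only 6 points, and they carry no test.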

How the data were processed

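The authors deposited 1 table of 75134 peaks with raw counts per peak and library, and beside them a normalized signal, which is the count divided by 1 factor per library. Further columns of that deposited table are log2 fold changes by the authors, p-values by the authors and a score for each peak (unused). Per the submitters' processing notes, the tools were Trimmomatic, BWA, MACS2, deepTools, bedtools and DESeq2 1.6.3, and the build GRCm38; no source used here gives the counting tool, the read shift or how peaks were merged.

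Counts were tested with the two-sided quasi-likelihood test of edgeR 4.0.16 under R 4.3.3 (glmQLFit, glmQLFTest, TMM factors, filterByExpr with a minimum count of 10), fitted on all peaks, of which 73896 passed, with Benjamini-Hochberg adjustment over them. Levels are CPM with TMM scaling, and an SE is the log2 fold change divided by the square root of F. A promoter peak is the annotated peak nearest a start site, within 3 kb. All 8 genes are named, with each promoter peak, each called peak, the strongest peak and the peak of smallest p; list genes are named where called, and the other list genes named were chosen after their values were seen, as were the 50 kb windows and the subunit ratios. DESeq2 1.42.0, limma 3.58.1 (voom), other scalings and filters and each library left out were tried. The procedure was tested on simulated data, with 40 changed peaks at each fold change, drawn from all but the weakest peaks. It recovered 10% of 1.5-fold rises, 60% of 2-fold rises and 35% of 2-fold falls, and 3 of its 122 calls were false. A peak that did not pass may thus still have changed by such an amount. The fast troponin peaks, each stronger than at least 85.7% of tested peaks, were not simulated apart, so these rates need not hold there. The simulated libraries also lacked the pattern of WT replicates 4 and 8, so the share of false calls in the real data may differ. The members and lists were chosen with earlier results of these data known. Motif searches used both strands of the 250 bases before each RefSeq start.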

Additional observations from a re-analysis of the deposited data

How the results depend on the processing

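The Tnni1 intronic peak was called higher under all 14 alternatives (log2 fold change 0.74 to 1.03), the Lsp1 peak under all 14 (1.09 to 1.32) and the Tnnc1 peak under 13 of 14. The number of higher troponin peaks was 1 to 2 and of lower ones 0 to 1 with each library left out. The library factors of the authors moved the median of all tested peaks from -0.01 to 0.19, and with them uncalled peaks changed sign without passing: Tnni1 at 135781252 (0.0089), Tnnt2 (0.15), the Tnnc2 promoter (0.15), Tnni3 (0.10 and 0.083), Tnni2 (0.041) and Tnnt3 at 142495913 (0.062), 142505329 (0.030) and 142513678 (0.040). In the authors' deposited table these were 0.0090, 0.15, 0.15, 0.10, 0.083, 0.041, 0.062, 0.030 and 0.040. All lay below that median. The Tnnc2 promoter was also above 0 with no filter (0.0098) and with total counts (0.031). With each library left out it ran from -0.12 to 0.18, and the other peaks that changed sign from -0.0023 to 0.17 and -0.41 to 0.038 (Tnni1 at 135778873 and 135781252), -0.063 to 0.25 (Tnnc2 at 164781707), -0.17 to 0.48 (Tnnt1), -0.17 to 0.13 (Tnnt2), -0.23 to 0.18 and -0.28 to 0.051 (Tnni3), -0.22 to 0.11 (Tnni2), -0.19 to 0.063, -0.24 to 0.13 and -0.22 to 0.074 (Tnnt3 in the order above). Of the gene sums, 1 was higher in DESeq2, 1 with the authors' factors (added after seeing the data) and 0 to 1 with each library left out, in each case Tnnc1. When all peaks within 3 kb of a start were summed and refitted, 0 promoters were higher, and Tnnc1 gave 1.10 (adjusted p = 0.215). The cause of these shifts was not tested. No paired analysis was possible because the 2 groups share only replicate number 4. The SE was 0.17 to 0.19 at the fast peaks and 0.19 to 0.36 at the slow peaks, with the largest at the weakest peak, Tnnt1. What depth adds to it was not tested.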
